A study of Mus musculus with 3 samples.

Results

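*Csf2rb2* and *Csf2rb* encode the beta chains of the receptors for interleukin 3, granulocyte-macrophage colony-stimulating factor and interleukin 5. Each of these receptors pairs a ligand-specific alpha chain with a beta chain, which carries the kinase JAK2 and passes the signal on through STAT5, the RAS pathway and PI3 kinase. *Csf2rb* encodes the beta chain shared by all of these receptors. *Csf2rb2* encodes a close relative that is present in mice and not in humans and that pairs with the interleukin 3 alpha chain alone. Both chains are best known from myeloid cells and mast cells, where they control survival, proliferation and maturation.

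The pair was taken as all rows of the table of selected probe sets whose gene name was *Csf2rb* or *Csf2rb2*. This gave 2 probe sets, 1 for each gene, among 1330 named probe sets for 1196 genes and 35512 probe sets on each array. The pair was chosen because of its low values after *Tet1* knockdown (KD), so the contrast of KD with control is a description here and was not tested for these genes. The cells were ATDC5, an established mouse chondroprogenitor line of wild-type genotype, cultured with insulin, transferrin and selenium for 15 days. They carried a lentiviral short hairpin RNA from the start of differentiation. There were 2 *Tet1* KD arrays, labelled Tet1sh1 (hairpin 1) and Tet1sh2 (hairpin 2), which target the same gene with different hairpins, and 1 nontarget (NT) array, labelled NT1. All 3 arrays come from cultures that were transduced and, per the study's methods, selected with puromycin. No hairpin has a replicate culture and NT has a single array, so precision is limited by how few arrays there are. Values are intensities on a linear scale, in the units of the authors' normalized array model. In RNA from whole cultures, fewer cells that carry a transcript and less of it per cell cannot be told apart.

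The 2 genes lie side by side on mouse chromosome 15 in the RefSeq annotation, and each holds a copy of the same microRNA gene, *Mir7676-1* inside *Csf2rb2* and *Mir7676-2* inside *Csf2rb*. The 2 hairpins are shown because they give, base by base, a stretch that the pair of genes has in common. They are RefSeq sequences of build GRCm38.p6, from chr15:78284788-78284849 on the minus strand and chr15:78348599-78348660 on the plus strand, with the mature 5p and 3p arms in capitals.
Mir7676-1: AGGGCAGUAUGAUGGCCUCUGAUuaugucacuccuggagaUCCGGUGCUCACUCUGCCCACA
Mir7676-2: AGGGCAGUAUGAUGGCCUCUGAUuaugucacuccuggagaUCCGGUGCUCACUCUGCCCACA
Over all 62 bases the number of differences was 0. The rest of the transcripts was not compared here. Related genes can share probes or bind each other's probes on an array, and the probe sequences were not used. The split of signal between *Csf2rb2* and *Csf2rb* is therefore uncertain, and how far either probe set reads the other transcript was not tested.

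Of the 2 genes, *Csf2rb2* had an entry in the RefSeq promoter table. Its window is shown because *Csf2rb2* had the lower share of its NT intensity of the pair. It runs from 250 bases before to 50 bases after the annotated start, at chr15:78305672-78305971 of GRCm38.p6 on the minus strand, and capitals mark the matches to the motifs named below.
Csf2rb2 promoter: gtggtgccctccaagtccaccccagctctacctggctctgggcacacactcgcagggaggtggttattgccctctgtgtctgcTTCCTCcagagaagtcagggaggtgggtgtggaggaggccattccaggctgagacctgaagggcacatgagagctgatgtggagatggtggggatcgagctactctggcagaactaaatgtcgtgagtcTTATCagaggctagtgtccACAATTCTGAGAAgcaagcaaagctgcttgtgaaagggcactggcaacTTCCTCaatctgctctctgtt
Both strands were searched for TTCNNNGAA, the site bound by STAT factors, and the window held 1 match, which began 15 bases before the start. Such a match was present in 8.3% of 32851 promoter windows of this length. The window also held 1 match to GATAA, a core read by GATA factors (in 25.4% of windows), 2 to GAGGAA, a core of the ETS family (28.3%), and 1 to ACAAT, a core of SOX factors (31%). The ACAAT match overlaps the TTCNNNGAA match by its last base. The window held 3 CG dinucleotides, the substrate of TET enzymes once methylated, against a median of 7 over all windows, and 31.4% of windows held 3 or fewer. These matches describe the letters of the window and do not show binding, and methylation was not measured on these arrays.

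*Tet1*, the targeted gene, encodes an enzyme that oxidizes methylated cytosine. It has 3 named probe sets, and each was lower under both hairpins than in NT. Names were given for selected probe sets alone, so any other *Tet1* probe set would be unseen here. The brightest measured 843 units under hairpin 1 and 726 units under hairpin 2, which are 51.8% and 44.6% of its 1626 units in NT. The middle one stood at 52.8% and 46.7% of NT and the dimmest at 36.4% and 46.9%. These probe sets thus went with the labels, but they were selected on the same arrays, so this is not an independent check. None of the 3 probe sets passed the limma test across 27311 probe sets described below (adjusted p from 0.133 to 0.186). The cartilage genes *Col2a1* and *Acan* measured 4914 and 1427 units in NT. The cell type was taken from the labels and was not tested.

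*Csf2rb2* measured 237 units under hairpin 1 and 129.7 units under hairpin 2, against 2465 units in NT. Both *Tet1* KD arrays lay far below NT, and the array with hairpin 2 was the lowest. The KD mean was 183 ± 75.7 units (SD, n = 2), which is 7.43% of NT, or a 13.5-fold lower intensity. Under hairpin 1 the gene stood at 9.61% of NT, a log2 fold of -3.38, and under hairpin 2 at 5.26%, a log2 fold of -4.25. The mean log2 fold was -3.81 ± 0.61 (SD, n = 2). Both KD values lie below the median intensity of their arrays, 279.6 and 263.9 units, and no background level or detection call was used here. How much of them is background was not tested, and every fold of *Csf2rb2* and its difference between hairpins carry this limit.

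*Csf2rb* measured 457 units under hairpin 1 and 427 units under hairpin 2, against 2263 units in NT. Here too both *Tet1* KD arrays lay far below NT, but close to each other. The KD mean was 442 ± 21.3 units (SD, n = 2), which is 19.5% of NT, or a 5.12-fold lower intensity. Under hairpin 1 the gene stood at 20.2% of NT, a log2 fold of -2.31, and under hairpin 2 at 18.8%, a log2 fold of -2.41. The mean log2 fold was -2.36 ± 0.07 (SD, n = 2).

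**Figure D1:**
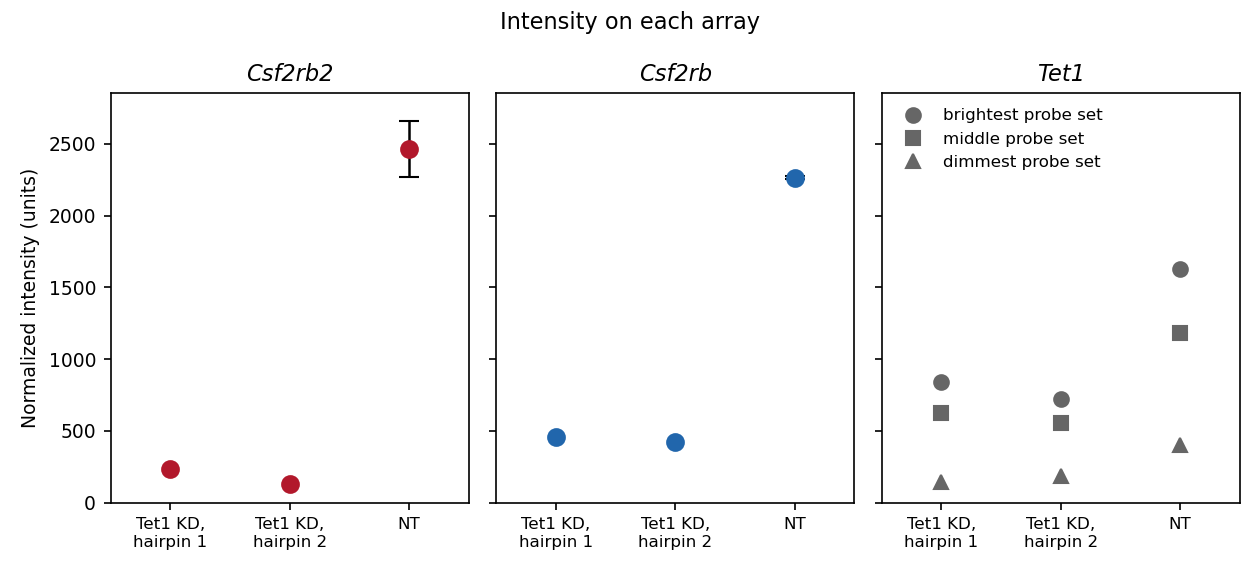
Normalized intensity in linear units (y axis, starting at 0) on each of the 3 arrays (x axis) for *Csf2rb2*, *Csf2rb* and the 3 named probe sets of *Tet1*, with 1 point for each probe set and array. Bars on the NT points of *Csf2rb2* and *Csf2rb* are the standard errors of the array model, 196 and 10.1 units, and both genes are far lower on the *Tet1* KD arrays, at 237 and 129.7 units for *Csf2rb2* and 457 and 427 units for *Csf2rb*.

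The 2 genes moved in the same direction but by different amounts. Relative to its own NT level, *Csf2rb2* was lower than *Csf2rb* by a further factor of 2.1 under hairpin 1 and 3.58 under hairpin 2, which are differences in log2 fold of -1.07 and -1.84. The order of the 2 genes was the same under both hairpins. Since both folds share the NT array and were used in choosing the pair, the difference was not tested. Levels of the 2 genes are not compared with each other, because their probe sets differ in brightness.

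The hairpins differed for *Csf2rb2* and hardly for *Csf2rb*, in a comparison that does not involve NT. The *Csf2rb2* intensity under hairpin 2 was lower than under hairpin 1 by a factor of 1.83, a log2 difference of -0.87. A difference of this size or more, in either direction, was found in 6.55% of the 27311 probe sets that averaged 100 units or more over the 3 arrays. Among the 11772 of these whose KD mean lay within 2-fold of that of *Csf2rb2* it was found in 9.58%. For *Csf2rb* the log2 difference was -0.10, and 79.9% of the 27311 probe sets differed by as much or more. The median size of the difference over these probe sets was 0.26. The *Csf2rb2* difference was thus among the larger ones but not rare, and with 1 array per hairpin it has no replicate check. *Tet1* itself was lower under hairpin 2 than under hairpin 1 on its 2 brighter probe sets, with log2 differences of -0.22 and -0.18, and higher on the dimmest, at 0.37.

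**Figure D2:**
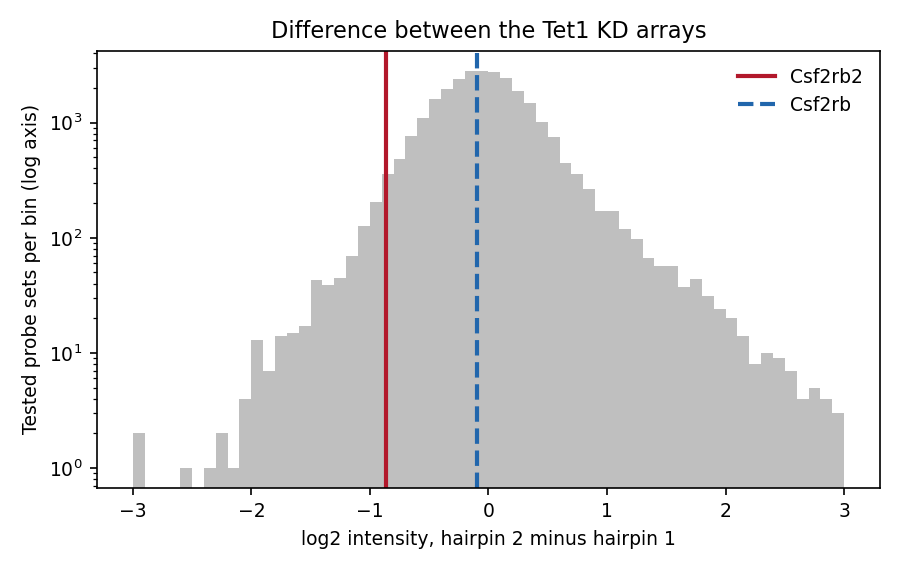
Number of probe sets (y axis, log scale, in bins of 0.1) by the log2 intensity under hairpin 2 minus that under hairpin 1 (x axis), for the tested probe sets within 3 log2 units of 0, with 27 outside that range. The solid line marks *Csf2rb2* at -0.87, in the left flank, and the dashed line *Csf2rb* at -0.10, near the centre.

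The control value of the 2 genes also differed in precision. For the NT array the authors deposited a standard error of each intensity, which reflects how well the probes of a set follow the array model and not the spread between cultures. It was 196 units for *Csf2rb2*, or 7.96% of its NT intensity, and 10.1 units for *Csf2rb*, or 0.45%. The median over the 1330 named probe sets was 3.03%. *Csf2rb* had the smallest relative error of all 1330, and 14.7% of them had a larger one than *Csf2rb2*. With NT lowered by 2 of its standard errors, to 2073 units, *Csf2rb2* in NT was 8.75-fold above its higher *Tet1* KD value. For *Csf2rb*, at 2243 units, the ratio was 4.91-fold. Both ratios put no error on the KD values and use the values that chose the pair. They are a description and set no bound on the folds.

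In the order of all 27311 probe sets by mean log2 fold, from the lowest, *Csf2rb2* was number 1 and *Csf2rb* number 16. *Csf2rb2* was also number 1 under each hairpin taken alone, and *Csf2rb* was number 20 under hairpin 1 and 44 under hairpin 2. By the difference in units the places were 159 and 324, since brighter probe sets can lose more units. The named gene next to *Csf2rb2* in the order was *Perp*, a desmosomal protein gene, with a mean log2 fold of -3.21. Next to *Csf2rb* stood *Lgr5*, a receptor for R-spondins, at -2.45, and *Tcim* (listed as 1810011O10Rik) at -2.29. By size alone, a 2.5-fold change and more than 100 units between the KD mean and NT, both genes were lower, as were 0.459% of all 35512 probe sets, and 1.28% were higher. These limits are those of the study's methods, whose further condition on the confidence bound of the fold was not applied here. Under each of the hairpins alone both genes met the size limits as well, against 0.237% of probe sets that did so under both. *Csf2rb2* was more than 5-fold lower under each hairpin, and *Csf2rb* under hairpin 2 and not quite under hairpin 1. Of all probe sets, 0.0535% under hairpin 1 and 0.144% under hairpin 2 were at least 5-fold and more than 100 units lower. These places and shares use the values that chose the pair and carry no weight as a test.

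The named genes most like each chain were found by the distance between pairs of log2 folds, hairpin 1 over NT and hairpin 2 over NT, over the 3 arrays. For *Csf2rb2* none was close. The nearest were *Perp* at a distance of 0.99, *Frzb*, a secreted Wnt antagonist of cartilage, at 1.06, *Cst6*, a cysteine protease inhibitor, at 1.22, *Acan*, the core protein of the cartilage proteoglycan aggrecan, at 1.30 and *Cthrc1* at 1.44. *Perp* stood at 11.5% and 10.2% of NT under hairpins 1 and 2, and *Acan* at 15.6% and 11.2%. For *Csf2rb* the nearest was *Fabp4*, a fatty acid carrier of adipocytes, at 0.10, with 21.4% and 19.5% of NT, followed by *Frmd4b* at 0.19, *Gjc3* (listed as Gje1), a connexin, at 0.21, *Tcim* at 0.21 and *Lgr5* at 0.26. *Csf2rb2* was not among the 5 nearest to *Csf2rb*, nor *Csf2rb* among the 5 nearest to *Csf2rb2*.

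**Figure D3:**
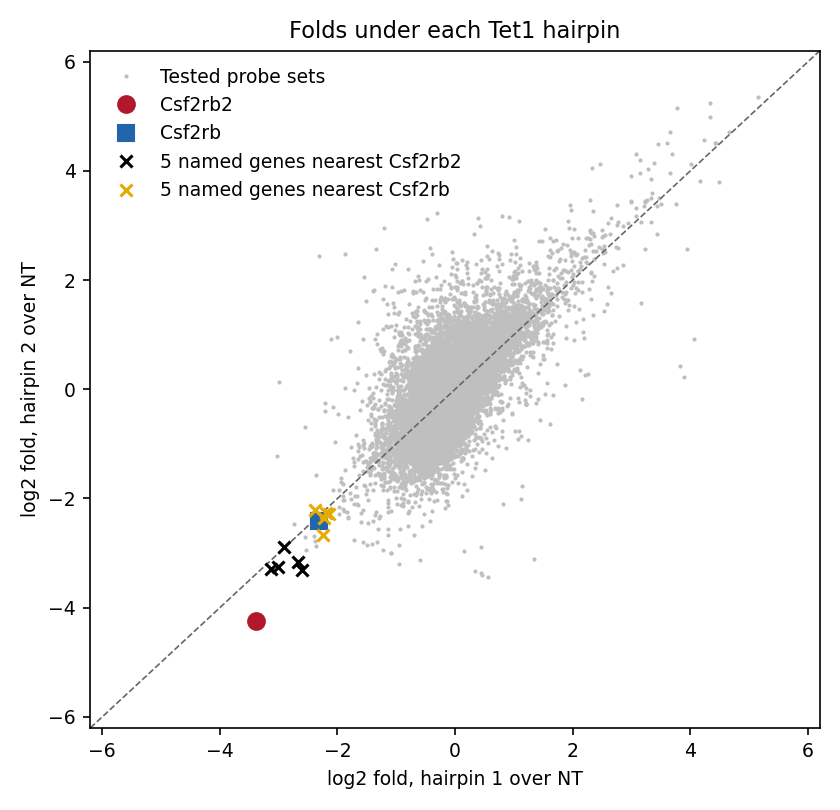
Log2 fold under hairpin 1 over NT (x axis) and under hairpin 2 over NT (y axis) for the 27311 tested probe sets (grey), which share the NT array. *Csf2rb2* (circle) lies alone at -3.38 and -4.25, below the dashed line of equal folds, *Csf2rb* (square) lies on it at -2.31 and -2.41, and crosses mark the 5 named genes nearest to each.

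Further genes of these receptors, of other cytokine receptors and of their signalling were read from lists that group them by role. These genes took no part in choosing the pair, so they were tested with limma on log2 intensities over all 27311 probe sets, comparing both *Tet1* KD arrays with NT. Of the 96 listed genes, 11 had a named probe set, because names were given for selected probe sets alone. All 11 were above NT under both hairpins, and 6 rose in the limma test. Among all tested probe sets 1.36% rose and 0.388% fell, but the 1330 named ones, from which these genes come, were mostly above NT. Of the named probe sets 801 (60.2%) were above NT under both hairpins and 26.8% rose. Every named probe set above NT by mean log2 fold was so under both hairpins, so that agreement is not particular to the 11. The authors had selected these 11 on the same arrays, so their share is not independent evidence. All 6 calls were lost when dim probe sets were not filtered out (adjusted p = 0.758 for each). The ligand genes *Il3*, *Csf2* and *Il5* and the alpha chain genes *Il3ra*, *Csf2ra* and *Il5ra* were not analysed here, nor were *Jak2*, *Stat5a*, *Stat5b* and *Cish*, the kinase, transcription factors and feedback inhibitor closest to the beta chains.

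Of 40 genes for other cytokine receptors 5 were named, and 4 of these rose, with a median log2 fold of 1.36 over the 5, against -0.12 over all tested probe sets and 0.87 over the 1330 named ones. *Il1r1*, the signalling receptor for interleukin 1, measured 795 and 1415 units under hairpins 1 and 2, against 223 units in NT, a log2 rise of 2.25 with a standard error (SE) of 0.38 (adjusted p from limma 0.00565). *Lifr*, the receptor for leukemia inhibitory factor, measured 4336 and 3986 units under hairpins 1 and 2, against 1621 units in NT, and rose by 1.36 ± 0.24 on the same scale (limma adjusted p = 0.00779). *Il15ra*, which binds and presents interleukin 15, rose by 1.69 ± 0.33, and *Il17ra*, the receptor for interleukin 17, by 1.24 ± 0.30 (limma adjusted p = 0.0142 and 0.0499). *Il13ra1*, a receptor chain for interleukin 13, did not pass, at a log2 fold of 0.86 (limma adjusted p = 0.0713). After quantile normalization *Il15ra* and *Il17ra* no longer passed (0.0673 and 0.116), and after median centring *Il17ra* did not (0.0779).

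Of 10 JAK and STAT genes 3 were named and 1 of them rose, with a median log2 fold of 0.78. *Stat2*, which carries interferon signals to the nucleus, measured 2354 and 2703 units under hairpins 1 and 2, against 851 units in NT. Its log2 rise was 1.57 ± 0.28 (SE; limma adjusted p = 0.008). *Stat3*, which acts below receptors of the interleukin 6 family, and the kinase gene *Tyk2* did not pass, at log2 folds of 0.75 and 0.78 (limma adjusted p = 0.133 and 0.352). Of 23 feedback inhibitors and target genes 3 were named and 1 rose, with a median of 1.08. *Socs2*, an inhibitor induced by STAT5, measured 1115 and 1656 units under hairpins 1 and 2, against 431 units in NT, and rose by 1.66 ± 0.34 (limma adjusted p = 0.02), a call lost after quantile normalization (0.0755) and median centring (0.0529). *Socs1*, an inhibitor of JAK kinases, and *Myc*, a growth regulator, did not pass, at log2 folds of 1.08 and 0.77 (limma adjusted p = 0.128 and 0.125). Of the 14 adaptors and phosphatases and of the 3 receptor tyrosine kinases for blood growth factors, 0 were named.

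**Figure D4:**
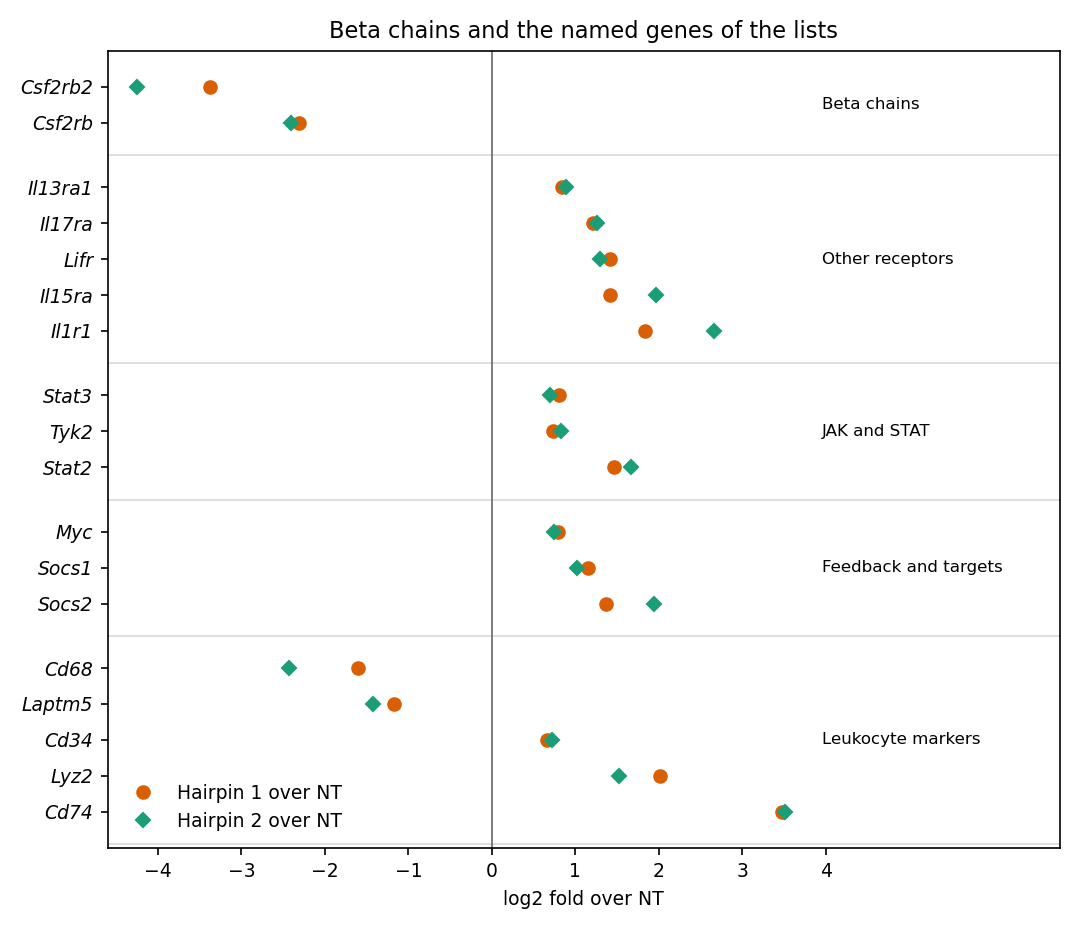
Log2 fold over NT (x axis) under hairpin 1 (circles) and hairpin 2 (diamonds), with genes grouped by role down the page. Shown are the beta chain genes, the 11 named genes of the cytokine receptor and signalling lists and the 5 named leukocyte markers. Both beta chains lie left of 0, at mean log2 folds of -3.81 and -2.36. All 11 genes of the receptor and signalling lists lie right of it, from 0.75 for *Stat3* to 2.25 for *Il1r1*. So do 60.2% of all named probe sets. None of the 11 is a ligand or alpha chain of the beta chain receptors.

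Because the beta chains are known from blood cells, the list of leukocyte and myeloid markers was read beside them. Of its 22 genes 5 were named, and they went both ways. *Cd68*, a lysosomal protein abundant in macrophages, measured 1458 and 820 units under hairpins 1 and 2, against 4424 units in NT, a log2 fold of -2.02 ± 0.34, and so fell (limma adjusted p = 0.00459). *Laptm5*, a lysosomal membrane protein of blood cells, measured 233 and 197 units under hairpins 1 and 2, against 527 units in NT, with a log2 fold of -1.30 that did not pass (limma adjusted p = 0.126). *Lyz2*, a lysozyme of myeloid cells, rose by 1.77 and *Cd74*, the invariant chain of antigen presentation, by 3.49 (limma adjusted p = 0.00977 and 2.28e-05). *Cd34*, a marker of progenitors and vessels, did not pass, at a log2 fold of 0.69 (limma adjusted p = 0.192). After quantile normalization *Cd68* and *Lyz2* no longer passed (0.0669 and 0.0602). Without the filter on dim probe sets the calls of *Cd68*, *Lyz2* and *Cd74* were all lost (0.775, 0.758 and 0.758). The summed intensity of the 5 markers was 10364 and 9371 units under hairpins 1 and 2, against 8354 units in NT, and none was listed at 0. *Cd68* and *Cd34* gave 4424 and 2695 of the units in NT, so the sum follows the bright probe sets and does not measure leukocyte content. Defining markers such as *Ptprc*, *Itgam*, *Spi1* and *Mpo* were not analysed here, and the part of blood cells in the beta chain values was not tested. Markers of other cell types moved on the same arrays as the beta chains. Of 16 chondrocyte markers 7 were named, of which 5 fell and 1 rose, with a median log2 fold of -2.05. Among all 1330 named probe sets 94 fell and 356 rose by limma. Both named genes of 8 fibroblast markers rose, and the 1 named gene each of 6 adipocyte and 5 epithelial markers fell. The calls of *Col2a1* and *Hapln1* among the chondrocyte markers were lost after quantile normalization (0.121 and 0.0773) and median centring (0.104 and 0.0526), and that of *Pdgfra* among the fibroblast markers after quantile normalization (0.0669). These markers too come from the selected probe sets, their calls were lost without the filter, and their part in the beta chain values was not tested.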

How the data were processed

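Total RNA of 3 ATDC5 cultures was hybridized to Affymetrix Mouse Gene 1.0 ST arrays. In dChip the authors applied the default invariant-set normalization and deposited model-based intensity values on a linear scale, for all probe sets in a value table and for 1524 selected probe sets in a comparison table with gene names and a standard error of the NT intensity. The tables were equal in every shared value. The submitters' processing notes name mm9; the dChip version is not given in the sources used here. The authors' fold changes, bounds and differences in that table were not used. Such normalization aims to remove a shift common to most probe sets. The median intensities still differed, at 279.6 units under hairpin 1, 263.9 under hairpin 2 and 304.6 in NT.

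Names came from the comparison table, updated through RefSeq of GRCm38.p6 (1084 probe sets by accession, 112 by symbol, 75 by older symbol, 59 kept); the brightest probe set stood for a gene. Intensities under 10 units were set to 10 before log2. The 27311 probe sets that averaged 100 units or more entered a limma 3.58.1 fit (R 4.3.3) that used an intensity trend, two-sided, with Benjamini-Hochberg adjustment at 0.05. The fit has 1 residual degree of freedom, pooled with the other probe sets by limma, and takes the single NT array to vary like the KD arrays, so p-values measure the spread between hairpins and are optimistic. The test was checked on artificial data drawn from its own fitted variance model. All arrays varied alike there, so that check cannot decide whether the NT array varies like the KD arrays. Genes were named by rule: the members, their list genes, and the nearest in fold and order. One listed gene is not reported here. The members and lists were chosen with earlier results of these data known. Alternatives were another offset, quantile normalization, median centring, other filters, no trend, another fold and each KD array left out. The setting with no trend was read for the counts over all probe sets and not for single listed genes.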

Additional observations from a re-analysis of the deposited data

How the results depend on the processing

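The places of *Csf2rb2* (number 1) and *Csf2rb* (number 16) from the lowest mean log2 fold were the same with log2(value + 32) and quantile normalization. Median centring shifts every mean log2 fold by the same amount, so the places could not change there. The places use the values that chose the pair and are a description. The log2 fold of *Csf2rb2* ranged from -3.84 to -3.58 over all of these settings and from -4.25 to -3.38 with either KD array left out. That of *Csf2rb* was -2.28 with log2(value + 32), -2.19 after median centring and -2.34 after quantile normalization, and ranged from -2.41 to -2.31 with either KD array left out.

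The counts over all probe sets moved far more. By limma 372 probe sets rose and 106 fell; this became 188 and 34 after quantile normalization, 87 and 21 without an intensity trend, and 0 and 0 with no filter on dim probe sets, where 2229 of 35512 had an unadjusted p under 0.05. After median centring 37 fell, and with a mean of at least 200 units 222 fell. By size 456 were higher and 163 lower. At 1.5-fold there were 1985 and 2111, and after median centring 92 were lower. Leaving out 1 KD array gave 353 to 859 higher and 175 to 492 lower, the higher counts with hairpin 2 alone. Of the listed receptor and marker genes 11 rose and 8 fell, against 6 and 5 after quantile normalization and 0 and 0 with no filter. Calls gained with a mean of at least 200 units were *Il13ra1* (limma adjusted p = 0.0243) and *Col11a1*. The causes of these shifts were not tested. A limma count with 1 KD array left out could not be fitted, since no residual degree of freedom is left. No paired analysis was possible because there was a single NT array and the labels used here record no pairing of cultures.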

Other observations

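Apart from the listed genes, 3 further cytokine receptor genes were named in the table and were picked after their values were seen. *Il17rd* measured 1080 and 912 units under hairpins 1 and 2, against 391 units in NT, *Il23r* 239 and 284 units, against 79.6 units in NT, and *Il18rap* 191 and 243 units, against 96.6 units in NT. None passed limma (adjusted p = 0.0597, 0.0516 and 0.257). They lay above NT under both hairpins, as did 60.2% of all named probe sets, so their direction adds no evidence on cytokine receptors as a group.

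None of the 5 RefSeq genes on either side of the pair on chromosome 15, which include the protein-coding *Ncf4*, *Pvalb*, *Ift27*, *Tex33*, *Tst* and *Mpst*, had a named probe set, so they were not analysed here. The nearest named genes stood 11 places away, not counting genes inside the pair, on one side (*Myh9*, a nonmuscle myosin, log2 fold 0.78) and 34 on the other (*Triobp*, log2 fold 0.85). Neither passed limma.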
